A study of Bos taurus with 6 samples.

Results

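Predicted miRNAs of 18 nt are short RNA sequences of cow milk extracellular vesicles (EVs) that matched no miRBase entry, were named by number in the deposited count table and had a length of 18 nt. Members were taken by name and length alone, under a rule set with earlier results of these data known. Of the 503 predicted miRNAs 209 met the rule, out of 779 listed miRNAs of which 276 were known. Each entry of the table is called a row here, because 21 of the 209 were listed under more than 1 predicted name, for 232 names in all. No sequence was listed in more than 1 row of the table, and only 1 known miRNA had 18 nt.

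The small RNA libraries came from milk EVs of 6 Holstein cows in mid lactation, of which 3 received the control diet and 3 received the replacement diet. The control diet was a total mixed ration (TMR), while the replacement diet gave up some of its alfalfa hay for soybean hull and whole cotton seed. All cows were kept in climate chambers at 20 °C and 40% humidity, and for the cows the labels give 101 ± 10 days in milk, 574 ± 36 kg body weight and 32 ± 2 kg milk per day, without saying what the ± stands for. The comparison asks which of these small RNAs differ in milk EVs when part of the hay is replaced. The libraries held between 12130660 and 13369168 reads per cow, which is the total that counts were divided by to give RPM, the reads per 1000000 reads. A row without a count could still hold up to 0.224 RPM in the library with most reads and 0.247 RPM in that with fewest, which corresponds to 3 counts. These limits and the Wilson intervals cover counting error only, since PCR copies are not independent molecules.

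A miRNA is cut from a hairpin precursor by Drosha and Dicer, is loaded into an Argonaute protein and finds its targets mainly through the seed, the bases 2 to 8 from its 5′ end. miRDeep2 predicts further miRNAs by asking whether reads pile up on a genome stretch that can fold into such a hairpin, so fragments of other abundant RNAs can enter a list of predictions. Milk EVs are membrane vesicles released into milk, and besides miRNAs they carry pieces of tRNA, rRNA and other small RNAs. In such bulk samples a smaller number of vesicles and less RNA per vesicle cannot be told apart. The label of the samples was checked against known miRNAs of mammary epithelium, which summed to between 57.9 and 142 RPM per cow, mostly as bta-miR-148a (mean 54.7 RPM) and bta-miR-30a-5p (mean 27.8 RPM). These and bta-miR-375 were counted in all 6 cows, whereas the other 5 of the 8 had means from 0.0257 RPM (bta-miR-200b, in 2 cows) to 2.56 RPM and no count in replacement cow 2. Known miRNAs of red blood cells were also present (6 of 6, summed 587 to 988 RPM, most abundant bta-miR-486), although bta-miR-16b had no count in replacement cow 3. Their sum was above that of the mammary epithelium miRNAs in every cow. Those of leukocytes were present too (7 of 7, summed 87.4 to 304 RPM, most abundant bta-miR-150), although bta-miR-142-3p was counted in 1 cow only.

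The 12 rows with the highest mean RPM are shown because they held nearly all counts of the class, together with novel61_mature, which shared its seed with the most counted row. Sequences are printed 5′ to 3′ as deposited, with T for U, and capitals mark the seed. The first 2 lines share a seed, and the other seeds each occur once in the list.
novel237_mature, also listed as novel503_mature: gCCTTGGTggttcagtgg
novel61_mature: gCCTTGGTggttcagggg
novel68_mature: gGTGGGTCggggcggggc
novel135_mature: gACCCAGGggcctaatgg
novel213_mature: gCCTTTGTggttcagtgg
novel9_mature: gCTGTCAGgggccccggg
novel141_mature: gGGGGTCGgggcggggcg
novel123_mature: aGTCGTCGggggccccgg
novel281_mature: tCCCCGGTggcctaatgg
novel170_mature: gCAGGTGTggttcagtgg
novel452_mature: gGCTTTGGtctaggggca
novel185_mature: cAGTGGATgaccttggct
novel229_mature: cGCGGCGGcgggcgcgcc

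The levels of the 209 rows were very uneven. The median row had a mean of 0.44 RPM over the 6 cows, against 0.889 RPM for known miRNAs, 0.267 RPM for predicted miRNAs of 19 to 21 nt and 0.127 RPM for those of 22 nt or longer. Under 1 RPM lay 142 rows (67.9%), 48 rows had between 1 and 10 RPM, and 19 rows reached 10 RPM or more. The most counted row, novel237_mature, held 76.8% ± 9.13 (SD, n = 6 cows) of the 18 nt counts. Its share was lowest in replacement cow 3 with 63.4% (95% Wilson interval 63.2% to 63.6%) and highest in control cow 3 with 88.5% (95% Wilson interval 88.4% to 88.6%). The next 3 rows, novel68_mature, novel135_mature and novel213_mature, raised the share to 96.6% ± 1.60 (SD, n = 6), and the first 20 rows together held 98.9% ± 0.602 (SD, n = 6). In pooled counts, 3 rows were enough for 90% of the 18 nt counts, and 8 rows when the most counted row was set aside. Predicted miRNAs of 19 to 21 nt needed 8 rows for the same share, and known miRNAs needed 36. The leading row of the known miRNAs held 18.1% ± 1.73 (SD, n = 6) of their counts, a share that lay below that of novel237_mature in its class by more than the spread between cows. The leading row of the predicted miRNAs of 19 to 21 nt held 61.6% ± 14.7 (SD, n = 6) of theirs, from 44.6% to 86.4%, which overlapped the range of novel237_mature.

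**Figure D1:**
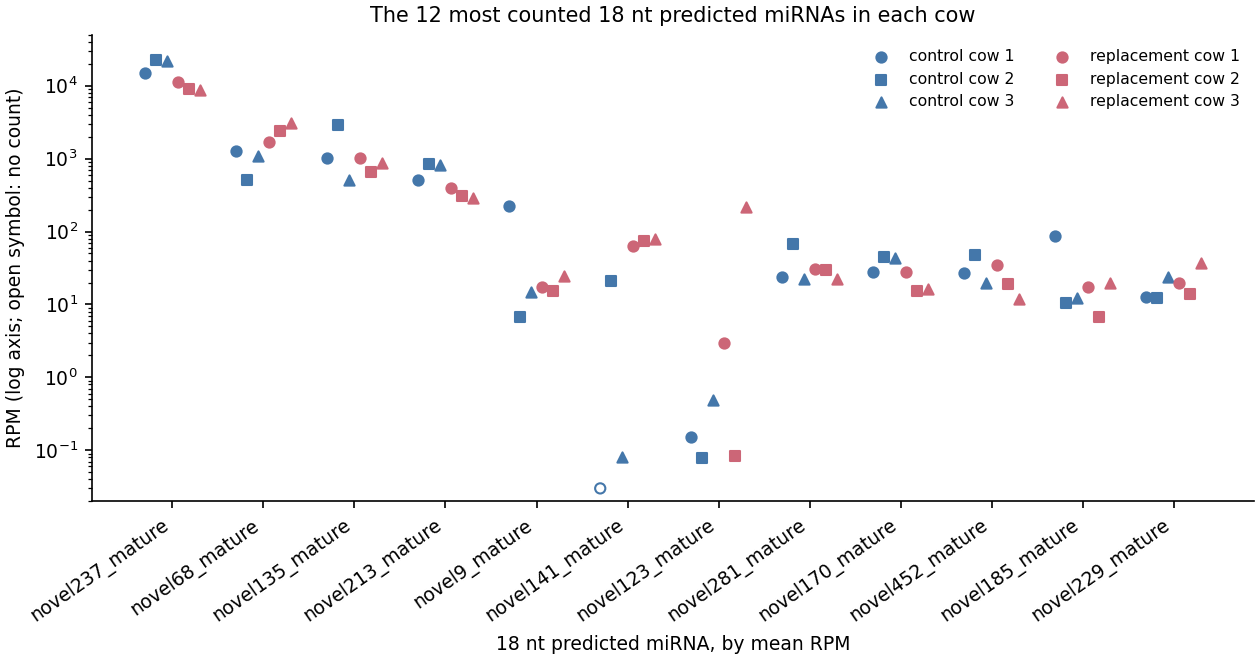
RPM (log axis) of the 12 most counted 18 nt predicted miRNAs, with 1 symbol per cow, control diet in blue and replacement diet in red, and an open symbol where a cow had no count. The most counted row lay between 8746 and 22622 RPM, and novel123_mature reached 214 RPM in replacement cow 3 while the other cows stayed at or under 2.99 RPM.

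The summed level of the class was lower on the replacement diet in every cow. The control cows had 18285, 27275 and 24301 RPM, and the replacement cows had 14983, 12759 and 13790.0 RPM. The diets did not overlap, and the means were 23287 ± 4580.2 (SD, n = 3) and 13844 ± 1113 (SD, n = 3) RPM, a ratio of 0.594 of replacement over control. This gap rested on a single row. Without novel237_mature the other 208 rows summed to 3513, 4653 and 2793 RPM in the control cows and to 3704, 3819 and 5044 RPM in the replacement cows. The diets then overlapped, with means of 3653 ± 938 (SD, n = 3) and 4189 ± 743 (SD, n = 3) RPM and a ratio of 1.15. Without the first 4 rows, an alternative chosen after seeing the data, the remaining 205 rows summed to 376 to 689 RPM on the control diet and to 494 to 789 RPM on the replacement diet, again with overlap and a ratio of 1.25. As a share of the counts of all predicted and known miRNAs, the 18 nt rows held 72.9%, 61.7% and 77.9% on the control diet and 47.6%, 56.6% and 64.2% on the replacement diet. On this scale control cow 2 lay below replacement cow 3, so the diets overlapped. No p is given for these sums.

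**Figure D2:**
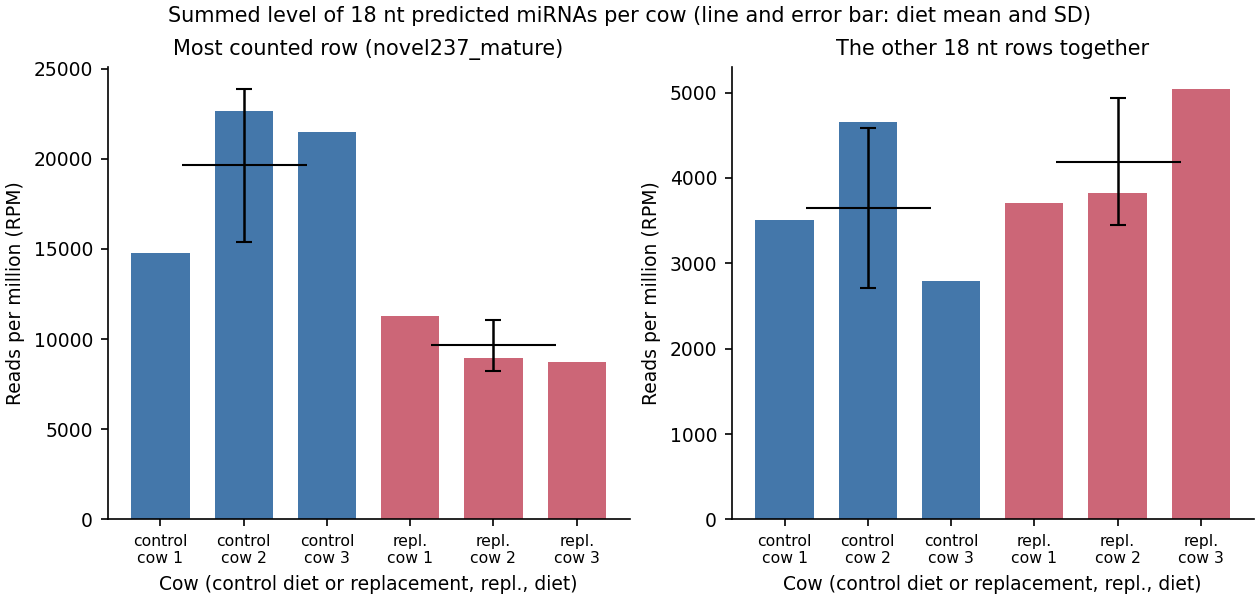
Level in RPM of the most counted row (left) and of the other 208 rows together (right) in each cow, with the diet mean and SD (n = 3 cows) as a black line and error bar. On the left the control cows lie at 14772 RPM or more and the replacement cows at 11279 RPM or less, while on the right the diets overlap.

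Among the most counted rows, novel237_mature had 14772, 22622 and 21508 RPM with the control diet and 11279, 8940.4 and 8746 RPM with the replacement diet. Each control cow was above each replacement cow, and control cow 1 was the nearest to the other diet. The means were 19634 ± 4247 (SD, n = 3) and 9655 ± 1409.8 (SD, n = 3) RPM, and the difference of -9979 RPM gave a two-sided exact permutation p of 0.1, the smallest that 3 cows against 3 can give. In the fit over all rows the log2 fold change was -1.28 with a standard error of 0.36 and an adjusted p of 0.593 (quasi-likelihood test in edgeR, adjusted after Benjamini and Hochberg), so the row did not pass the test. With library size alone in place of the scaling factors that edgeR applies (TMM), which differed between diets, the log2 fold change was -0.61. Without control cow 3 it did pass, with a log2 fold change of -1.06 and an adjusted p of 0.0232 in edgeR. The level of novel213_mature followed the same order of cows, with 516, 840.2 and 817 RPM on the control diet and 402, 311 and 289 RPM on the replacement diet. Here the log2 fold change was -1.38 with a standard error of 0.34 and an adjusted p of 0.593 in edgeR.

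The other leading rows did not all move in the same way, although novel170_mature, given below, was also lower without overlap. For novel68_mature the control cows had 1273, 503 and 1086 RPM and the replacement cows had 1689, 2357 and 3096 RPM. All replacement cows were above all control cows, in the opposite direction to novel237_mature, with a log2 fold change of 0.99, a standard error of 0.59 and an adjusted p of 0.986 in edgeR. For novel135_mature the control cows had 1035, 2879 and 514 RPM and the replacement cows had 1021, 657 and 869 RPM. Control cow 2 was the highest, control cow 3 the lowest, and the diets overlapped. The largest log2 fold change among the 11 of the 12 rows that were tested was that of novel141_mature, with 0, 20.7 and 0.0805 RPM on the control diet and 63.6, 75.1 and 78.5 RPM on the replacement diet. It was nearly uncounted in control cows 1 and 3, which had 0 and 1 counts against 261 in control cow 2 and 850 to 990 in the replacement cows. Its whole sequence lies within novel403_mature, a predicted miRNA of 19 nt, which had the opposite pattern with 32.2, 0.636 and 35.1 RPM on the control diet and 2.02, 1.81 and 6.90 RPM on the replacement diet. Both rows summed to 32.2, 21.4 and 35.2 RPM and to 65.6, 76.9 and 85.4 RPM, a sum formed after the values were seen. The sum was still higher in every replacement cow, but the ratio of the diet means was 2.57 against 10.4 for novel141_mature alone, and how reads were divided between these nested sequences was not tested. In edgeR the log2 fold change of novel141_mature was 3.70 with a standard error of 1.72 and an adjusted p of 0.986. Without control cow 2 it was 10.15 with an adjusted p of 0.0145 in edgeR, which rested on 1 count in the remaining control cows, while the log2 ratio of the summed RPM of both rows was 1.17 without that cow.

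Several leading rows owed their level to 1 cow. The level of novel9_mature was 222 RPM in control cow 1 and between 6.67 and 24.7 RPM in the other 5 cows. Its log2 fold change of -2.49 became 0.63 without that cow. Likewise novel185_mature had 85.9 RPM in control cow 1 and 6.76 to 19.8 RPM elsewhere, and its log2 fold change of -1.69 became 0.21 without that cow. In replacement cow 3, novel123_mature had 214 RPM against 0.0795 to 2.99 RPM elsewhere, and it did not pass the filter on low counts. The remaining rows of the 12 overlapped between diets or were lower on the replacement diet. For novel281_mature the range over cows was 22.4 to 68.3 RPM, for novel452_mature 12.0 to 47.1 RPM and for novel229_mature 12.3 to 37.6 RPM, each with overlap. In the control cows novel170_mature had 27.7, 45.1 and 43.7 RPM, and in the replacement cows it had 27.6, 15.3 and 16.3 RPM. The diets did not overlap, although control cow 1 and replacement cow 1 were nearly level.

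A set of 6 rows ended in the same 7 bases, TCAGTGG, and it held the most counted row. The set was chosen after its values were seen, and it is shown again with these bases in capitals because 5 of its members were lower in every replacement cow than in any control cow.
novel237_mature: gccttggtggtTCAGTGG
novel213_mature: gcctttgtggtTCAGTGG
novel170_mature: gcaggtgtggtTCAGTGG
novel221_mature: gcccggatggcTCAGTGG
novel361_mature: gcactggtggtTCAGTGG
novel27_mature: gccggggtggtTCAGTGG
The same ending was found in 1 of 231 predicted miRNAs of 19 to 21 nt (0.433%), in 1 of 63 of 22 nt or longer (1.59%) and in 0 of 276 known miRNAs, each read over its first 18 bases on the listed strand, against 2.87% of the 18 nt rows. Compared with novel237_mature as the first sequence and counted from the 5′ end, novel213_mature had the substitution G6T, novel61_mature had T16G and novel361_mature had C3A with T4C. How reads that fit more than 1 of these close sequences were counted is not given in the sources used here, so the counts of rows that differ by 1 base are uncertain.

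The 6 rows summed to 15333, 23522 and 22385 RPM on the control diet and to 11720.1, 9271 and 9057 RPM on the replacement diet. Without novel237_mature the other 5 summed to 561, 900.1 and 877 RPM and to 441, 331 and 311 RPM, of which novel213_mature made up the largest part. Since 5 of the 6 rows were shown for being lower without overlap, the direction of these sums and of the median that follows was fixed by that choice. All 6 passed the filter on low counts, and their median log2 fold change was -1.27, beside -0.17 over the 52 rows of 18 nt that were tested and 0.03 over all 227 rows tested. Each of the 6 had a log2 fold change below 0 in edgeR, from -1.90 for novel221_mature to -0.37 for novel27_mature, except that novel27_mature turned to 0.33 when counts were scaled by library size alone. For novel221_mature the control cows had 13.1, 7.87 and 9.01 RPM and the replacement cows had 7.41, 1.57 and 1.82 RPM, without overlap. For novel361_mature the values were 4.51, 5.56 and 6.20 RPM and 3.29, 2.31 and 2.85 RPM, also without overlap. The least counted of the 6, novel27_mature, overlapped between diets, with 0.305 to 1.35 RPM on the control diet and 0.793 to 0.898 RPM on the replacement diet.

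Relative to novel237_mature, 3 of the 5 other rows that end in TCAGTGG kept a narrow range over cows. Part of this follows from the choice of a set in which 5 of 6 members, novel237_mature included, were lower on the replacement diet, so the ratios and their order are a description. The ratio was computed for the 19 other rows with at least 20 counts in every cow. Highest over lowest cow was 1.15 for novel213_mature, 1.33 for novel361_mature and 1.43 for novel170_mature, which were the 3 narrowest ranges of the 19. The median of the 19 was 5.32 and the widest range, 51.0, was that of novel9_mature. In RPM, novel237_mature itself ranged 2.59-fold over cows. The next in order were novel258_mature with 2.05, which ends in other bases, and novel61_mature with 2.45. At 1 substitution from novel237_mature, novel61_mature held 0.0289% to 0.071% of its level, whereas novel213_mature, also at 1 substitution, held 3.31% to 3.80%. Outside the 19, novel221_mature, with a lowest count of 19, ranged 5.08-fold, and novel27_mature, with a lowest count of 4, ranged 4.46-fold. The ratios describe 6 libraries, and the rows of a ratio share the library and its depth.

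**Figure D3:**
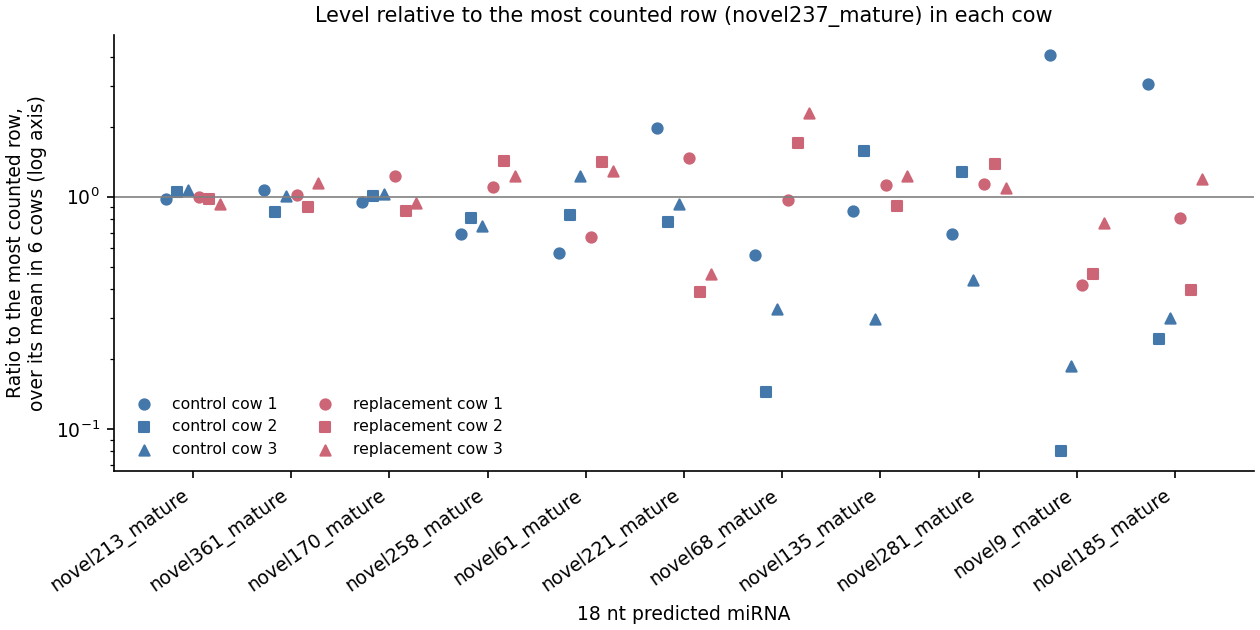
Ratio of the level of 11 rows to that of novel237_mature in each cow, divided by its mean over the 6 cows (log axis), with control diet in blue and replacement diet in red. The points of novel213_mature, novel361_mature and novel170_mature lie close to the line at 1, with ranges of 1.15, 1.33 and 1.43, and those of novel9_mature spread over a range of 51.0.

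A further set was built around novel68_mature, the row with the highest level after novel237_mature. The rows are shown because each differs from novel68_mature or from novel133_mature by 1 base, and capitals mark the seed, which novel133_mature, novel216_mature and novel45_mature share.
novel68_mature: gGTGGGTCggggcggggc
novel108_mature: gGTGGGCCggggcggggc
novel147_mature, also listed as novel151_mature: gGTGGCTCggggcggggc
novel133_mature: gGGGGGTCggggcggggc
novel216_mature: gGGGGGTCggggcggggt
novel45_mature, also listed as novel47_mature: gGGGGGTCggggctgggc
With novel68_mature first and positions counted from the 5′ end, novel108_mature had T7C, novel147_mature had G6C and novel133_mature had T3G. With novel133_mature first, novel216_mature had C18T and novel45_mature had G14T. The relatives were rare beside novel68_mature. For novel133_mature the control cows had 1.37, 0.636 and 1.37 RPM and the replacement cows had 2.39, 2.56 and 3.96 RPM, and the diets did not overlap. For novel108_mature the values were 0.153, 0.318 and 0.161 RPM and 2.32, 0.495 and 0.634 RPM, also higher on the replacement diet without overlap, with 2 to 4 counts per control cow. The levels of novel216_mature overlapped between diets. Mean levels were 0.142 RPM for novel45_mature and 0.132 RPM for novel147_mature, both counted in 4 cows.

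Rows close to another one, compared base by base from the 5′ end or as contained in it, were a minority of the class. Sequences shifted against each other were not searched, so more rows may be related. An example is novel141_mature, which begins with all bases of novel133_mature after its first base. Of the 209 rows, 17 differed by 1 base from another 18 nt row, 4 differed by 1 base from the first 18 bases of a longer predicted miRNA and 3 lay within a longer predicted sequence, which made 20 rows with any such relation. None lay within a known miRNA or within 1 base of the start of one, and no reverse complement of an 18 nt row was listed. Known miRNAs shared the seed of 6 rows, among them novel407_mature with bta-miR-339a and bta-miR-339b, novel492_mature with bta-miR-504 and novel35_mature with bta-miR-485. Each of the 6 had a mean under 1 RPM and 5 of them were counted in 1 cow only. The 209 rows had 169 different seeds. A seed was shared within the class by 67 rows, at most by 6 rows with the seed GAAGGGG, of which novel258_mature was the most counted at 19.8 RPM.

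The base make-up differed from that of known miRNAs. With each row counted once, G made up 45.5% of the bases of 18 nt rows and T 13.4%, against 25.3% and 28.9% in known miRNAs. The GC content was 70.3% ± 14.2 (SD over 209 rows), beside 70.9% ± 15.7 (SD over 231 rows) for predicted miRNAs of 19 to 21 nt, 64.6% ± 13.3 (SD over 63 rows) for those of 22 nt or longer and 47.9% ± 11.5 (SD over 276 rows) for known miRNAs. A GC content of 70% or more was found in 102 rows (48.8%), against 13 known miRNAs (4.71%). The first base was G in 94 rows (45.0%) and T in 20 rows (9.57%), whereas 134 known miRNAs (48.6%) began with T. Weighted by counts, 98.6% of the 18 nt counts fell on rows that began with G, and 93.2% did so without novel237_mature. The GC content weighted by counts was 64.1%, and it was 75.5% without novel237_mature. Along the sequence, G was the most frequent base except at positions 3, 13 and 18, and it reached 61.2% at position 5. Predicted miRNAs of 19 to 21 nt had a similar make-up, with 47.1% G and 12.5% T and with G as the first base in 103 of 231 rows (44.6%).

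**Figure D4:**
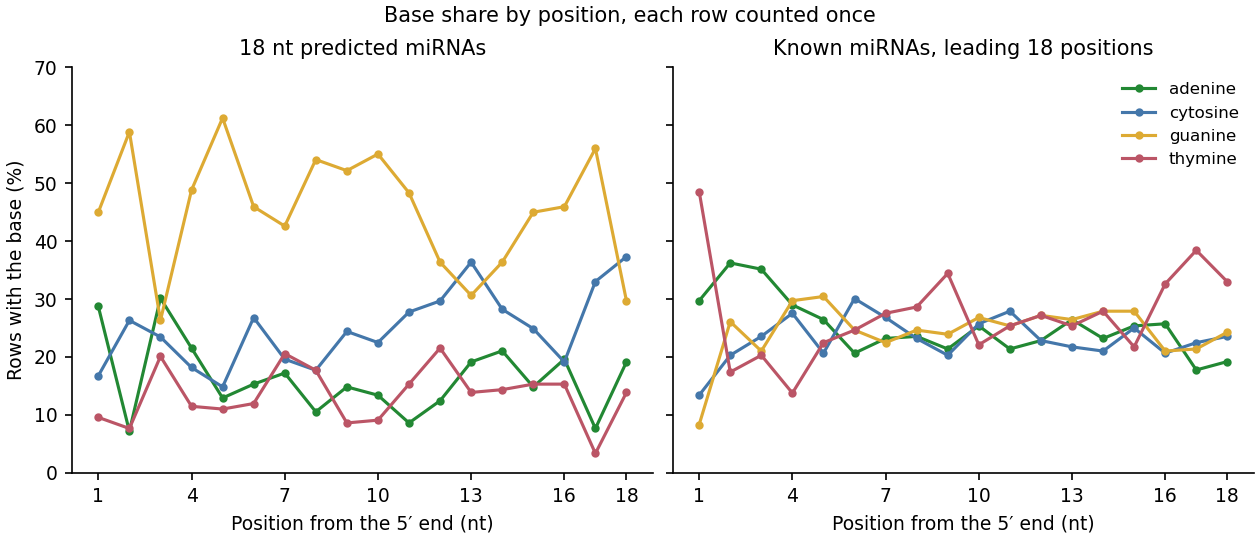
Share of rows with each base at positions 1 to 18 from the 5′ end, for the 209 rows of 18 nt (left) and the 276 known miRNAs (right). Guanine reaches 61.2% at position 5 of the 18 nt rows, and thymine stands at 48.6% at position 1 of the known miRNAs.

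Short patterns were searched on the listed strand over the first 18 bases of every row. The run GGGG was found in 84 rows (40.2%), in 93 predicted miRNAs of 19 to 21 nt (40.3%), in 21 of 22 nt or longer (33.3%) and in 12 known miRNAs (4.35%). The 84 rows summed to 2642, 3560.0 and 1765 RPM in the control cows and to 3017, 3242 and 4436 RPM in the replacement cows, with overlap and a ratio of 1.34. Without novel68_mature the other 83 summed to 1369, 3057 and 679 RPM and to 1329, 885 and 1339 RPM, again with overlap, and the ratio turned to 0.696. The longer pattern GGGGCGGG, part of which is a GGGG run, was found in 15 rows (7.18%), 13 of 19 to 21 nt (5.63%), 0 of 22 nt or longer and 1 known miRNA (0.362%). Rows with it summed to 1279.6, 526 and 1142 RPM on the control diet and to 1835, 2443 and 3186 RPM on the replacement diet, without overlap. Most of this was novel68_mature, whose own values did not overlap, so that row set the direction of the sum. A sum without novel68_mature was not formed for this pattern. The A box, a promoter element inside tRNA genes, was matched by 19 rows (9.09%), by 5 of 19 to 21 nt (2.16%), by 1 of 22 nt or longer (1.59%) and by 0 known miRNAs. These 19 rows, novel237_mature included, held 80.5% ± 9.42 (SD, n = 6 cows) of the 18 nt counts. The other 18 summed to 663, 1061 and 962 RPM in the control cows and to 564, 455 and 425 RPM in the replacement cows, and the diets did not overlap. Of these, 5 were the rows that end in TCAGTGG, and the 13 A box rows without that ending summed to 102, 161 and 85.5 RPM and to 123, 124 and 114 RPM, with overlap and a ratio of 1.04. With 111 rows, those with neither the A box nor GGGG were the most numerous, and they held 1.03% ± 0.485 (SD, n = 6) of the counts. A match says only that these letters are present. No row was matched to a genome or to tRNA genes here.

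Detection across cows was uneven as well. In all 6 cows 44 rows were counted (21.1%), and these held 99.1% of the 18 nt counts. In 1 cow only 89 rows were counted (42.6%), with 1 to 83 counts, a median of 10 counts and 0.105% of the 18 nt counts. Of known miRNAs 103 (37.3%) were counted in all cows, and of predicted miRNAs 41 of 19 to 21 nt (17.7%) and 4 of 22 nt or longer (6.35%). Single cows held 102, 92 and 105 rows on the control diet and 109, 97 and 102 rows on the replacement diet, with overlap. Of the rows found in 1 cow only, the control cows had 17, 19 and 19 and the replacement cows 15, 11 and 8, without overlap. Over all 779 rows the control cows had 76, 65 and 75 such rows and the replacement cows 55, 35 and 27, also without overlap. The highest counts among these were 83 for novel464_mature in control cow 2, 57 for novel336_mature in replacement cow 2 and 55 for novel39_star, named as the other strand of its hairpin, in replacement cow 3. Rows counted in 2 or 3 cows of 1 diet and in no cow of the other numbered 6 for the control diet (2.87%) and 10 for the replacement diet (4.78%), against 33 (4.24%) and 25 (3.21%) of all rows. The GC content was 68.3% ± 16.3 (SD over 44 rows) for rows counted in all cows, 73.2% ± 15.8 (SD over 76 rows) for rows counted in 2 to 5 cows and 68.7% ± 11.1 (SD over 89 rows) for rows counted in 1 cow.

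**Figure D5:**
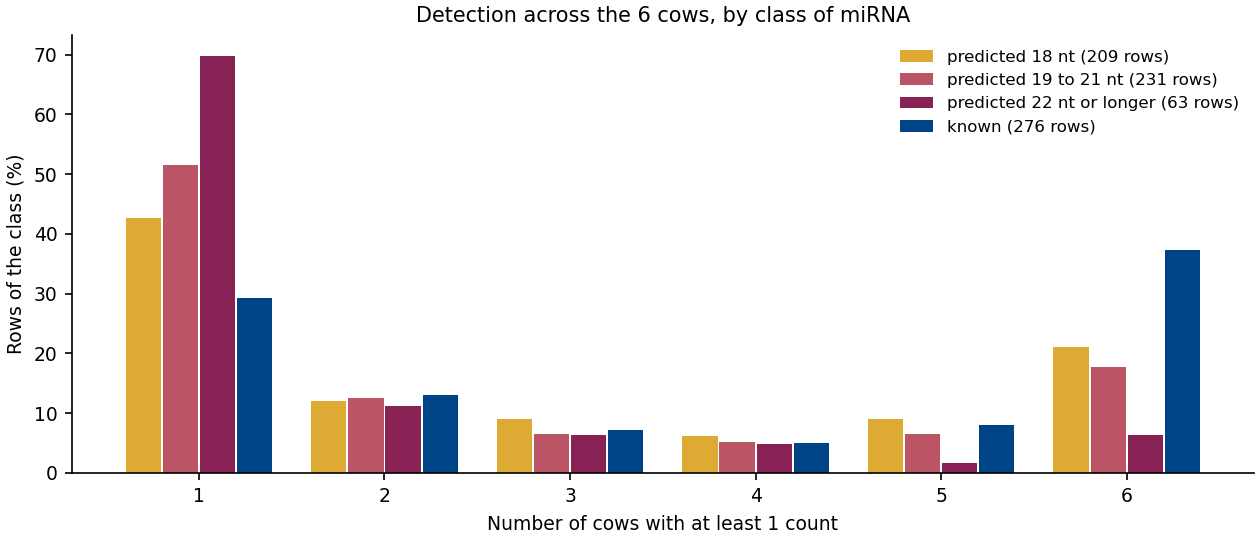
Percent of the rows of each class that had at least 1 count in 1 to 6 cows. Of the 18 nt rows 42.6% were counted in 1 cow and 21.1% in all 6 cows, against 37.3% in all 6 cows for known miRNAs.

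Between diets, 52 of the 209 rows passed the filter on low counts and were tested among 227 rows in all, so the tested rows are the better counted ones and not the class. None of the 52 was called at an adjusted p under 0.05 in edgeR, and the background over all rows tested was 0.0%. The biological coefficient of variation of this fit, a measure of the spread between cows of a diet, was 0.885. With 3 cows per diet and this spread, a row without a call may still differ between diets. At an unadjusted p under 0.05 there were 4 of the 52, novel213_mature, novel237_mature, novel170_mature and novel221_mature, where the background over all 227 rows was 3.52%. All 4 had a negative log2 fold change and belong to the TCAGTGG set, which was chosen with these values seen. With DESeq2, which tested 109 of the 209 rows, 3 were called, against a background of 1.79%. These were novel287_mature, novel537_mature and novel63_mature, which had 25, 166 and 85 counts in replacement cow 2, 276, 146 and 182 in replacement cow 3 and at most 1 count in any other cow. Without the filter on low counts edgeR called 10 of the 209, 6 of them higher on the replacement diet, against a background of 1.93%. They included novel141_mature with an adjusted p of 6.04e-05 and novel237_mature with 0.0166 in edgeR, and also rows carried by 1 cow, such as novel123_mature and novel9_mature.

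By overlap of the RPM values, 8 of the 52 tested rows were higher in every replacement cow than in any control cow, where the background over the rows tested was 9.25%. In the opposite direction 5 of the 52 did not overlap, against 4.85%. With so few rows these shares are a description. Of the 8 that were higher without overlap, the 5 with the largest log2 fold change are listed here. They were novel141_mature, novel21_mature at 1.63, novel201_mature at 1.40, novel267_mature at 1.13 and novel133_mature at 1.07. The sequence that contains novel141_mature, novel403_mature, was mostly counted in control cows 1 and 3. Also among the 8 was novel68_mature, described above. For novel21_mature the control cows had 1.53, 0 and 4.35 RPM and the replacement cows had 11.4, 9.07 and 6.34 RPM. For novel201_mature the values were 9.93, 0.715 and 1.85 RPM and 15.9, 9.97 and 17.8 RPM, and control cow 1 came close to replacement cow 2. For novel267_mature they were 4.51, 1.75 and 2.98 RPM and 10.5, 5.36 and 10.1 RPM. Lower without overlap were novel221_mature, novel213_mature, novel237_mature, novel170_mature and novel361_mature, which are the 5 rows that the choice of the TCAGTGG set rested on, so their shared ending restates that choice. None of the rows named in this paragraph passed the test in the main setting of edgeR, while novel141_mature and novel237_mature passed it in some alternatives.

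The scaling of the libraries moved with the diet. The TMM factors that edgeR applied were 0.892, 0.864 and 0.668 for the control diet and 1.15, 1.36 and 1.24 for the replacement diet, so they lay on opposite sides of 1. Scaling by library size alone moved the median log2 fold change of all rows from 0.03 to 0.63, and total reads as library size moved it to 0.23. Of all predicted and known miRNA counts, novel237_mature alone made up 51.2% to 68.9% per control cow but 35.8% to 40.7% per replacement cow. Its own level is thus part of the library size, and the median under library size alone is not a baseline independent of it. How far this row set the TMM factors was not tested. The log2 fold change of novel237_mature was -0.61 with library size alone and -1.02 with total reads, below the median of all rows under each. That of novel68_mature stayed above 0 in all settings, from 0.59 to 1.66. Red blood cell miRNAs summed to 587, 921 and 988 RPM in the control cows and to 858, 755 and 603 RPM in the replacement cows, with overlap, and bta-miR-486 (mean 489 RPM) made up most of each sum. Of the 6 members bta-miR-185 alone was lower in every replacement cow, at 3.28, 7.07 and 11.02 RPM against 2.92, 2.31 and 3.09 RPM. For bta-miR-451 the values were 78.3, 191 and 278 RPM against 93.8, 85.7 and 90.7 RPM, and control cow 1 was the lowest. Their part in the levels of the 18 nt rows was not tested.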

How the data were processed

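Small RNA of milk EVs from 6 cows was analysed, with diet and cow number taken from the sample labels. In the study's methods the authors kept trimmed reads of 15 to 41 nt, removed other RNA with Rfam and predicted miRNAs with miRDeep2. The submitters' processing notes name cutadapt 1.14, Bowtie and the genome build ARS-UCD1.2. The authors deposited whole-number counts per mature sequence. The authors also deposited RPM under the name TPM, which were counts over 1 total per cow with no length term. Their table of diet comparisons (fold changes and p-values) was not used. Diets were compared over the whole table with edgeR 4.0.16 (quasi-likelihood test after TMM and the filterByExpr filter, Benjamini-Hochberg) in R 4.3.3, checked on simulated data, with DESeq2 1.42.0 and limma 3.58.1 (log2 of RPM plus 1) as alternatives. No pair of cows of a diet was a duplicate (chi-square per degree of freedom 53.9 to 184 over 18 nt rows). Rows named were the 12 highest by mean RPM, up to 5 per direction with the largest fold change without overlap, up to 3 of 1 cow with the highest count, and their relatives within 1 base. Others (novel27_mature, novel258_mature, novel287_mature, novel537_mature, novel63_mature and those sharing seeds with known miRNAs) were named after their values were seen. The members and lists were chosen with earlier results of these data known. Other calculations used Python 3.11.15, numpy 2.4.6, pandas 2.3.3 and scipy 1.17.1.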

Additional observations from a re-analysis of the deposited data

How the results depend on the processing

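The count of 18 nt rows called between diets was 0 in the main setting and in 11 of 15 alternatives. It was 3 with DESeq2 and 10 without the filter on low counts, and 0 to 1 when each cow was left out, where control cow 2 (novel141_mature, then resting on 1 control count) or control cow 3 decided the call. The log2 fold change of novel237_mature was negative in all 14 alternatives, with adjusted p from 0.0166 to 0.983 in edgeR, DESeq2 or limma. It was -0.61 with library size alone, against -1.28 in the main setting, and -1.22 without the filter, where it passed the test. It ran from -1.37 to -1.06 when each cow was left out. The labels do not say that same-numbered cows were paired. Correlations of same-numbered cows were -0.15, -0.10 and 0.23, within the range of differently numbered cows (-0.28 to 0.32). With so few cows these correlations cannot decide whether cows were paired. With a replicate block 0 rows were called and novel237_mature had -1.24 with an adjusted p of 0.982 in edgeR. The log2 ratio of the summed RPM, -0.75, became -0.34 as a share of all miRNA counts and -0.090 as a share of predicted counts. It turned to 0.20 without novel237_mature and, in alternatives chosen after seeing the data, to 0.41 without the rows that end in TCAGTGG and 0.33 without the 4 most counted rows. Rows detected in all cows fell from 44 to 24 at a limit of 10 counts and to 24 at 1 RPM. The share of novel237_mature stayed between 74.5% and 79.5% in 8 alternatives. Counting identical sequences once changed nothing, since the table lists each once. Rows under the filter on low counts were not tested in the main setting, and depth limits what their values show.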
